A study of Arabidopsis thaliana with 6 samples.

Results

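The genes described here are 38 listed Arabidopsis thaliana loci, of 27444 nuclear protein-coding genes, that carry out or control DNA replication and cell division. They were chosen by name and function, with earlier results of these data known. They comprise subunits of the MCM helicase, PCNA, cyclins, cyclin-dependent kinases (CDKs), E2F factors with their partner RBR1, and KRP inhibitors. Licensing factors, enzymes of nucleotide synthesis, and genes of mitosis and cytokinesis complete the list. All 6 libraries came from whole Col-0 seedlings, a standard laboratory accession, grown on MS agar for 1 to 2 weeks at 22 °C in constant white light of 70 to 100 µmol and then held for 48 h in darkness. The Light group (3 libraries) then received light for 6 h, and the Dark group (3 libraries) stayed in darkness for the same 6 h. RNA was read by 3′READS+, which sequences the 3′ end of polyadenylated RNA, so each read marks the poly(A) site of a transcript and a gene's level does not scale with its length. The labels do not say whether the replicates were separate plantings, so the p-values cover only how far these libraries differ from each other, and that spread may be technical.

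A plant cell that divides must first license its replication origins, with CDC6 and CDT1 loading the MCM helicase, and then copy its DNA with PCNA as the sliding clamp of the polymerases. Entry into this S phase is gated by RBR1, which holds E2F factors in check until D-type cyclins with CDKA;1 phosphorylate it, while KRP proteins inhibit these kinases. A- and B-type cyclins and the plant-specific B-type CDKs act later, towards mitosis, and KNOLLE serves vesicle fusion at the cell plate that separates the daughter cells.

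The deposited table held 217870 poly(A) site clusters and 13196815 to 13513571 reads per Light library and 13355548 to 14534166 per Dark library. For each gene, the clusters on its strand within its span, or up to 200 nt past its 3′ end, were summed. Levels are given as CPM, reads scaled to a library size of 1000000 after TMM adjustment. The strand could be inferred from the reads for 35 of the 38 genes. Of these, 32 passed the filter on low counts and were tested with edgeR's quasi-likelihood test, fitted with 17103 genes and adjusted by Benjamini-Hochberg over all of them.

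Of the 32 genes tested, 24 were higher in Light (75.0%, against 37.3% of all genes tested), 3 were lower (against 35.4% of all genes), and 5 did not pass the test. The 5 tested helicase subunits, both PCNA genes, both ribonucleotide reductase genes and both licensing factors were among those that rose, and the kinase CDKA;1, the inhibitor KRP1 and the cyclin CYCD3;2 were the 3 that fell. The median log2 change of the tested members was 2.25, against 0.05 over all genes tested. A change of at least 2 on the log2 scale was called in 17 members (53.1%, against 10.3% of all genes). The libraries of the groups did not overlap for 25 members with Light above, a pattern held by 39.1% of all genes, and for 3 with Dark above (36.5% of all genes).

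Many of these genes were low in darkness, which bears on the counts. Of the tested members, 16 passed the filter through the Light libraries alone, as did 12.8% of all genes tested, so it was their level in Light that brought them into the test. They were MCM2, MCM3, MCM4, MCM7, PCNA1, CDC6, CDT1A, WEE1, KNOLLE, CYCB1;2, CYCB1;4, CDKB1;1, E2FA, DEL1, CYCD2;1 and E2FC. These 16 held 14 of the 24 genes that rose and 14 of the 17 with a change of at least 2, and their median was 2.88. Of the other 16, 10 were higher, 3 of them by at least 2 on the log2 scale, and their median was 0.75. No share over all genes, split in the same way, stands beside these counts, so they are not set against a background. Among the 13 members with a mean of at least 5 CPM over the 6 libraries, 9 were higher, beside 35.3% of the 12003 genes at that level. A rise of at least 2 was called in 4 of these members, beside 7.27% of those genes. The 3 that were lower have no share at that level beside them, and over all genes tested 35.4% were lower. In whole seedlings, fewer dividing cells and less RNA per cell cannot be told apart.

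The summed level of the 35 genes was 518, 499 and 482 CPM in the Light libraries and 615, 610 and 625 CPM in the Dark libraries. Its direction depended on the scaling: per 1000000 assigned reads, without TMM factors, the sum was 583 ± 21.2 in Light and 528 ± 27.4 in Dark seedlings (SD, n = 3 each). The 24 genes that rose summed to 217 ± 22.9 CPM in Light and 57.3 ± 2.95 CPM in Dark seedlings (SD, n = 3 each). The 3 genes that fell summed to 263 ± 10.7 CPM in Light and 544 ± 8.16 CPM in Dark seedlings. These 2 sets were formed by the direction of each gene in the same libraries, so the direction of their sums is no separate result. Without TMM factors the genes that rose summed to 254 in Light and 49.1 in Dark seedlings. Those that fell summed to 307 in Light and 467 in Dark seedlings.

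**Figure D1:**
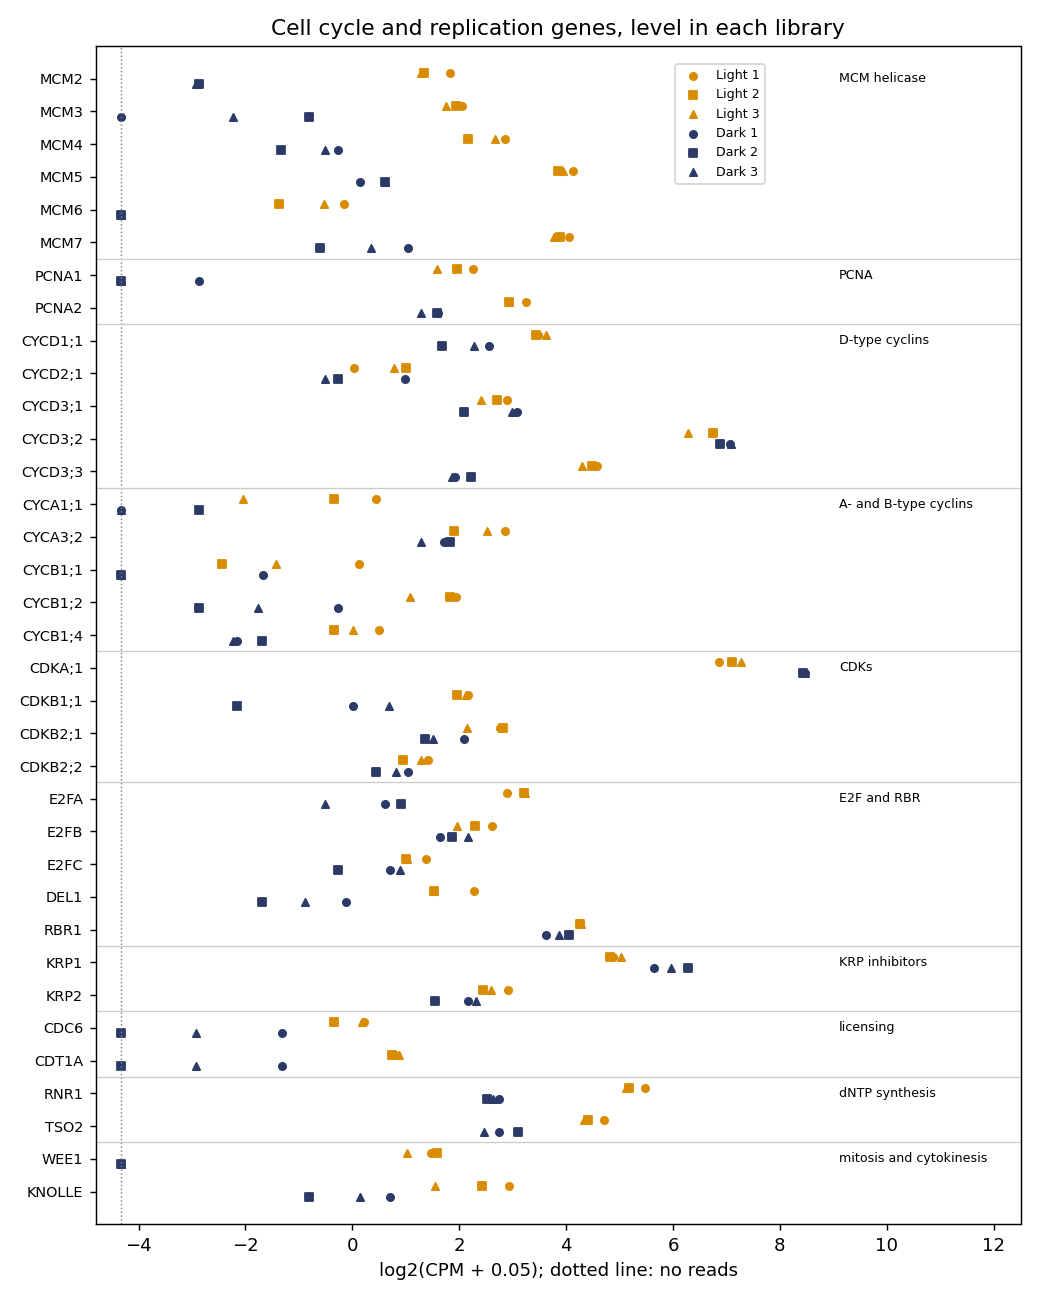
Level of the 35 genes in each of the 6 libraries, as log2(CPM + 0.05), with Light libraries in orange above Dark libraries in blue and a marker shape per replicate; the dotted line marks a library without reads. All Dark points of MCM6 and WEE1 lie on that line, and CDKA;1 and CYCD3;2 lie furthest to the right.

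The MCM helicase unwinds DNA at the replication fork as a ring of 6 related subunits. All 5 tested subunits were higher in Light, by 3.31 to 4.89 on the log2 scale. MCM2, MCM3, MCM4 and MCM7 passed the filter through the Light libraries alone. MCM2 (AT1G44900) had 3.51, 2.49 and 2.37 CPM in the Light libraries, against 0.0872, 0.087 and 0.0817 CPM in the Dark libraries. The Dark values stand for 1 read in each library, against 128 reads in the Light libraries together. The ratio was 32.8, with a 95% interval of 11.0 to 161 that covers counting error only, and the fitted log2 change was 4.89 ± 0.50 (SE, edgeR adjusted p = 8.06e-07). MCM4 (AT2G16440) had the smallest change of the subunits tested, with 7.16, 4.45 and 6.34 CPM in Light and 0.785, 0.348 and 0.653 CPM in Dark libraries, a log2 change of 3.31 ± 0.34 (SE, edgeR adjusted p = 7.11e-07). No Light library of either gene reached down to a Dark library.

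MCM5 (AT2G07690) and MCM7 (AT4G02060, PRL or PROLIFERA) were the most abundant subunits. MCM5 averaged 15.7 ± 1.61 CPM in Light and 1.33 ± 0.247 CPM in Dark seedlings, and MCM7 averaged 15.0 ± 1.45 CPM in Light and 1.28 ± 0.700 CPM in Dark seedlings (SD, n = 3 each). Their log2 changes were close, 3.55 ± 0.21 for MCM5 and 3.54 ± 0.27 for MCM7 (SE). MCM3 (AT5G46280) had 171 reads in Light and 8 in Dark libraries, a log2 change of 3.98 ± 0.50 (SE). Of those 8 reads 6 were from Dark replicate 2. The change was 5.32 without that library and 3.41 without Dark replicate 1. MCM6 (AT5G44635) was too low for the test: 13, 5 and 10 reads in the Light libraries and 0 in every Dark library, at least 7.17-fold higher in Light, with the Dark group set at 3 reads in all. The 6 subunits summed to 43.8 ± 5.04 CPM in Light and 3.52 ± 0.444 CPM in Dark seedlings (SD, n = 3 each), 12.4 times as much.

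Both PCNA genes rose, and they differed in their level in darkness. PCNA1 passed the filter through the Light libraries alone. PCNA1 (AT1G07370) had 73, 57 and 46 reads in the Light libraries, against 1, 0 and 0 in the Dark libraries, a ratio of 135 (95% interval from counting error alone, 24.0 to 5370, edgeR adjusted p = 2.84e-07). Its only Dark read was in Dark replicate 1. PCNA2 (AT2G29570) had 9.50, 7.61 and 7.56 CPM in Light and 2.97, 2.96 and 2.37 CPM in Dark libraries, a log2 change of 1.57 ± 0.21 (SE, edgeR adjusted p = 1.13e-05). In darkness nearly all PCNA reads were thus those of PCNA2, and in neither gene did the groups overlap.

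The licensing factors were scarce in both groups, and they passed the filter through the Light libraries alone. CDC6 (AT2G29680) had 17, 11 and 17 reads in Light libraries, against 4, 0 and 1 in Dark libraries, a log2 change of 2.71 ± 0.67 (SE, edgeR adjusted p = 0.00222). CDT1A (AT2G31270) had 26, 24 and 28 reads in Light, against 4, 0 and 1 in Dark libraries, a log2 change of 3.50 ± 0.59 (SE, edgeR adjusted p = 0.000102). Without Dark replicate 1, which held 4 of the 5 Dark reads of each, the changes were 4.26 for CDC6 and 5.05 for CDT1A. Without Dark replicate 2 they were 2.16 for CDC6 and 2.95 for CDT1A. Both loaders of the helicase were thus higher in each of the 3 Light libraries than in any Dark library.

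Ribonucleotide reductase makes the deoxyribonucleotides that replication consumes, with RNR1 as its large subunit and TSO2 as a small subunit. RNR1 (AT2G21790) had 44.3, 35.9 and 34.9 CPM in Light and 6.63, 5.66 and 6.12 CPM in Dark libraries, a log2 change of 2.64 ± 0.15 (SE, edgeR adjusted p = 2e-09). TSO2 (AT3G27060) had 403, 317 and 316 reads in Light and 76, 98 and 67 reads in Dark libraries, a log2 change of 1.72 ± 0.18 (SE, edgeR adjusted p = 8.78e-07). The lowest Light library of each stood well above the highest Dark library. In Light seedlings RNR1 was the most abundant of the 24 genes that rose.

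**Figure D2:**
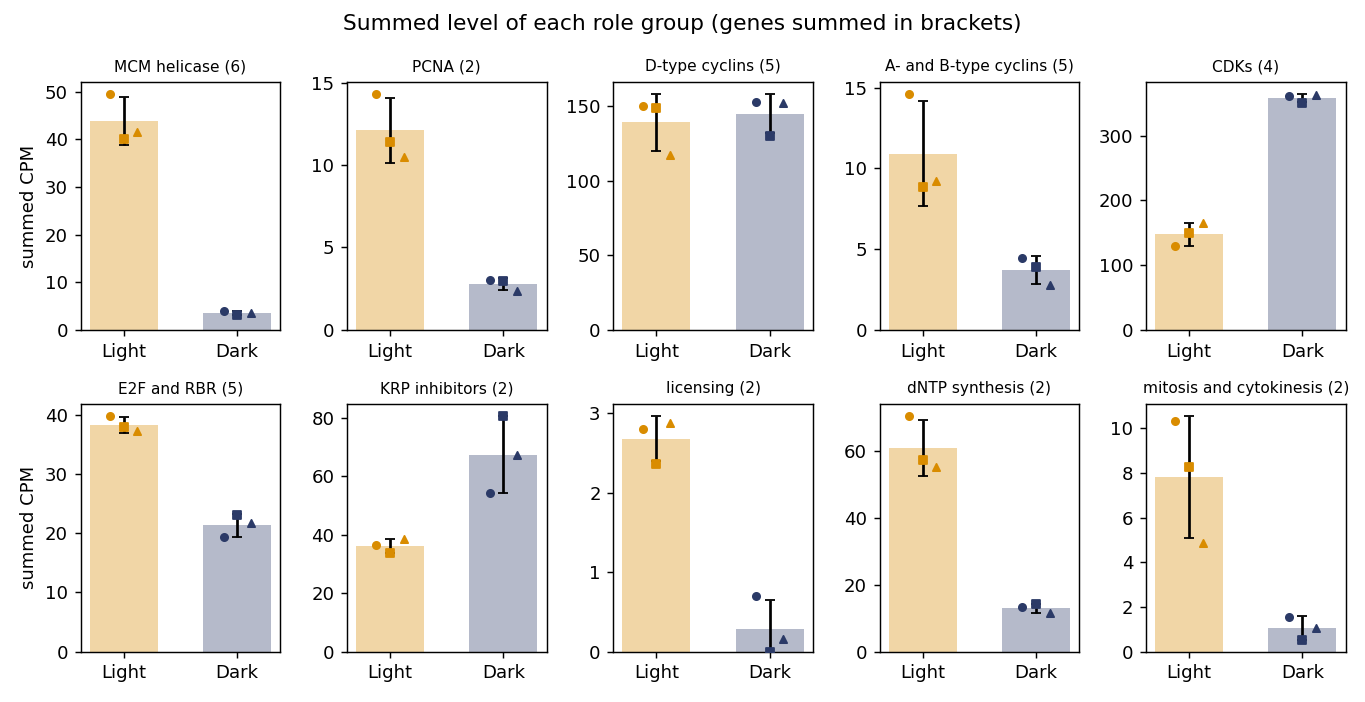
Summed CPM of the genes of each role group, Light on the left and Dark on the right of each panel; points are libraries (circle, square and triangle for replicates 1, 2 and 3), bars are means, error bars are SD (n = 3 each), and each panel has its own scale starting at 0. The MCM sum is 43.8 CPM in Light and 3.52 CPM in Dark, the CDK sum is 148 CPM in Light and 358 CPM in Dark, and the D-type cyclin sums, 139 CPM in Light and 145 CPM in Dark, overlap.

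The E2F factors and their partner RBR1 differed in the size of the change, with log2 values from 0.41 to 2.72. E2FA (AT2G36010, E2F3 in RefSeq), an activating E2F, had 7.42, 9.23 and 9.35 CPM in Light and 1.48, 1.83 and 0.653 CPM in Dark libraries, a log2 change of 2.72 ± 0.29 (SE, edgeR adjusted p = 1.1e-06). DEL1 (AT3G48160), an atypical E2F known to delay the onset of endoreduplication, averaged 3.49 ± 1.15 CPM in Light and 0.541 ± 0.309 CPM in Dark seedlings (SD, n = 3 each), a log2 change of 2.67 ± 0.41 (SE, edgeR adjusted p = 4.59e-05). RBR1 (AT3G12280) had 19.0, 19.1 and 19.3 CPM in Light and 12.3, 16.5 and 14.5 CPM in Dark libraries. The groups did not overlap, but the log2 change was small, 0.41 ± 0.14 (SE, edgeR adjusted p = 0.0182), and without Dark replicate 1 or Dark replicate 3 it no longer passed (adjusted p = 0.0986 and 0.0655).

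E2FB and E2FC did not pass the test. E2FB (AT5G22220, E2F1 in RefSeq), the second activating E2F, had 6.05, 4.85 and 3.84 CPM in Light and 3.05, 3.57 and 4.41 CPM in Dark libraries, which overlap, a log2 difference of 0.41 ± 0.24 (SE, edgeR adjusted p = 0.136). E2FC (AT1G47870, ATE2F2 in RefSeq), a repressing E2F, averaged 2.16 ± 0.329 CPM in Light and 1.38 ± 0.532 CPM in Dark seedlings (SD, n = 3 each, edgeR adjusted p = 0.109). With library totals in place of TMM factors, which moved the median of all genes by 0.45, both passed, at 0.86 for E2FB and 1.07 for E2FC.

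The D-type cyclins, which tie division to sugar and hormone signals, did not move as a group. CYCD3;3 (AT3G50070) had 23.7, 22.2 and 19.7 CPM in Light and 3.75, 4.61 and 3.59 CPM in Dark libraries, a log2 change of 2.45 ± 0.17 (SE, edgeR adjusted p = 1.05e-08). CYCD1;1 (AT1G70210) averaged 11.4 ± 0.774 CPM in Light and 4.60 ± 1.37 CPM in Dark seedlings (SD, n = 3 each), a log2 change of 1.30 ± 0.21 (SE, edgeR adjusted p = 6.57e-05). Of the 5 D-type cyclins tested among the members, only these 2 rose. Outside the members, CYCD5;1 and CYCD6;1 were also higher in Light, by 1.22 and 1.46 (edgeR adjusted p = 0.0102 and 0.00631).

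CYCD3;2 (AT5G67260), by far the most abundant of these cyclins, had 107, 108 and 78.0 CPM in Light and 133, 117 and 135 CPM in Dark libraries. The Light libraries all lay below the Dark libraries, with a log2 change of -0.40 ± 0.13 (SE, edgeR adjusted p = 0.0134). Light replicate 3 was the lowest, and without it the change was -0.26 (adjusted p = 0.0601). With library totals in place of TMM factors the direction turned, to 0.04 (adjusted p = 0.787). CYCD3;1 (AT4G34160) had 7.35, 6.47 and 5.25 CPM in Light and 8.37, 4.18 and 7.84 CPM in Dark libraries, a log2 difference of -0.10 ± 0.25 (SE, edgeR adjusted p = 0.731). CYCD2;1 (AT2G22490) averaged 1.53 ± 0.502 CPM in Light and 1.12 ± 0.696 CPM in Dark seedlings (SD, n = 3 each, edgeR adjusted p = 0.357). The groups overlapped in both of these genes. CYCD4;1 (AT5G65420) had 7 reads in the Light libraries and 0 in the Dark libraries, too few to settle its strand.

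The A- and B-type cyclins of S phase and mitosis were low in whole seedlings. All 3 of those that could be tested were higher in Light, beside 37.3% of all genes tested. CYCB1;2 and CYCB1;4 passed the filter through the Light libraries alone. CYCB1;2 (AT5G06150, CYC1BAT in RefSeq) had 3.77, 3.50 and 2.05 CPM in Light and 0.785, 0.087 and 0.245 CPM in Dark libraries, a log2 change of 3.04 ± 0.50 (SE, edgeR adjusted p = 8.6e-05). That change was 4.11 without Dark replicate 1 and 2.59 without Dark replicate 2. CYCB1;4 (AT2G26760) had 47 reads in Light and 7 in Dark libraries, a log2 change of 2.31 ± 0.53 (SE, edgeR adjusted p = 0.00129). CYCA3;2 (AT1G47210) had 7.16, 3.70 and 5.70 CPM in Light and 3.23, 3.48 and 2.37 CPM in Dark libraries, a log2 change of 0.87 ± 0.27 (SE, edgeR adjusted p = 0.0103). The lowest Light library of CYCA3;2 stood just above the highest Dark library, and the call was lost without Light replicate 1 (adjusted p = 0.0689) or without Dark replicate 3 (adjusted p = 0.0565).

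The mitotic cyclins CYCA1;1 and CYCB1;1 fell under the filter. CYCA1;1 (AT1G44110) had 20, 11 and 3 reads in Light libraries, against 0, 1 and 0 in Dark libraries, a ratio of 26.1 (95% interval from counting error alone, 4.38 to 1060). CYCB1;1 (AT4G37490), the usual marker of cells in G2 and M, had 16, 2 and 5 reads in Light libraries, against 3, 0 and 0 in Dark libraries, a ratio of 5.89 (95% interval from counting error alone, 1.78 to 30.6). Its groups overlapped. CYCB2;1 (AT2G17620) had 0 reads in the Light libraries and 1 in the Dark libraries.

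The kinases moved in opposite directions. CDKA;1 (AT3G48750, CDC2 in RefSeq), the kinase present throughout the cycle, was the most abundant of all 38 genes, with 116, 137 and 154 CPM in Light and 354, 347 and 356 CPM in Dark libraries. The groups were far apart, with a log2 change of -1.38 ± 0.12 (SE, edgeR adjusted p = 1.09e-07), and Dark seedlings held 2.60 times the level of Light seedlings. CDKB1;1 (AT3G54180), of the class specific to plants, had 4.43, 3.84 and 4.29 CPM in Light and 0.959, 0.174 and 1.55 CPM in Dark libraries, a log2 change of 2.20 ± 0.41 (SE, edgeR adjusted p = 0.000248). That change was 1.72 without Dark replicate 2 and 2.85 without Dark replicate 3. CDKB2;1 (AT1G76540) averaged 6.02 ± 1.45 CPM in Light and 3.16 ± 0.896 CPM in Dark seedlings (SD, n = 3 each), a log2 change of 0.93 ± 0.26 (SE, edgeR adjusted p = 0.00552). CDKB2;2 (AT1G20930) had 2.60, 1.89 and 2.37 CPM in Light and 2.01, 1.31 and 1.71 CPM in Dark libraries, which overlap, a log2 difference of 0.45 ± 0.30 (SE, edgeR adjusted p = 0.19). With library totals it passed, at 0.89 (adjusted p = 0.0183).

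The KRP genes, inhibitors of cyclin-CDK complexes, also differed from each other. KRP1 (AT2G23430, ICK1 in RefSeq) had 29.2, 28.2 and 32.4 CPM in Light and 49.6, 77.7 and 62.4 CPM in Dark libraries, a log2 change of -1.08 ± 0.15 (SE, edgeR adjusted p = 1.56e-05). KRP2 (AT3G50630) had 7.48, 5.39 and 6.02 CPM in Light and 4.45, 2.87 and 4.90 CPM in Dark libraries, a log2 change of 0.63 ± 0.23 (SE, edgeR adjusted p = 0.0274). All Light libraries lay below all Dark libraries for KRP1 and above them for KRP2. The call of KRP2 was lost without Light replicate 1, Light replicate 3 or Dark replicate 2 (adjusted p = 0.122, 0.0514 and 0.0987).

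WEE1 (AT1G02970), the kinase that holds cells with incomplete replication back from mitosis, had 42, 44 and 31 reads in Light libraries and none in any Dark library. It was at least 30.0-fold higher in Light, with the Dark group set at 3 reads in all (edgeR adjusted p = 2.34e-06). KNOLLE (AT1G08560, SYP111 in RefSeq) had 7.55, 5.32 and 2.88 CPM in Light and 1.57, 0.522 and 1.06 CPM in Dark libraries, a log2 change of 2.31 ± 0.41 (SE, edgeR adjusted p = 0.000158). Its groups did not overlap. CDC20.1 (AT4G33270), an activator of the anaphase-promoting complex, had 3 reads in Light and 1 in Dark libraries.

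Light replicate 1 held the highest level of the 3 Light libraries in 22 of the 32 tested genes (68.8%, against 34.6% of all genes tested). Without that library 22 genes were higher in Light, and the median log2 change of the 32 genes was 2.00.

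**Figure D3:**
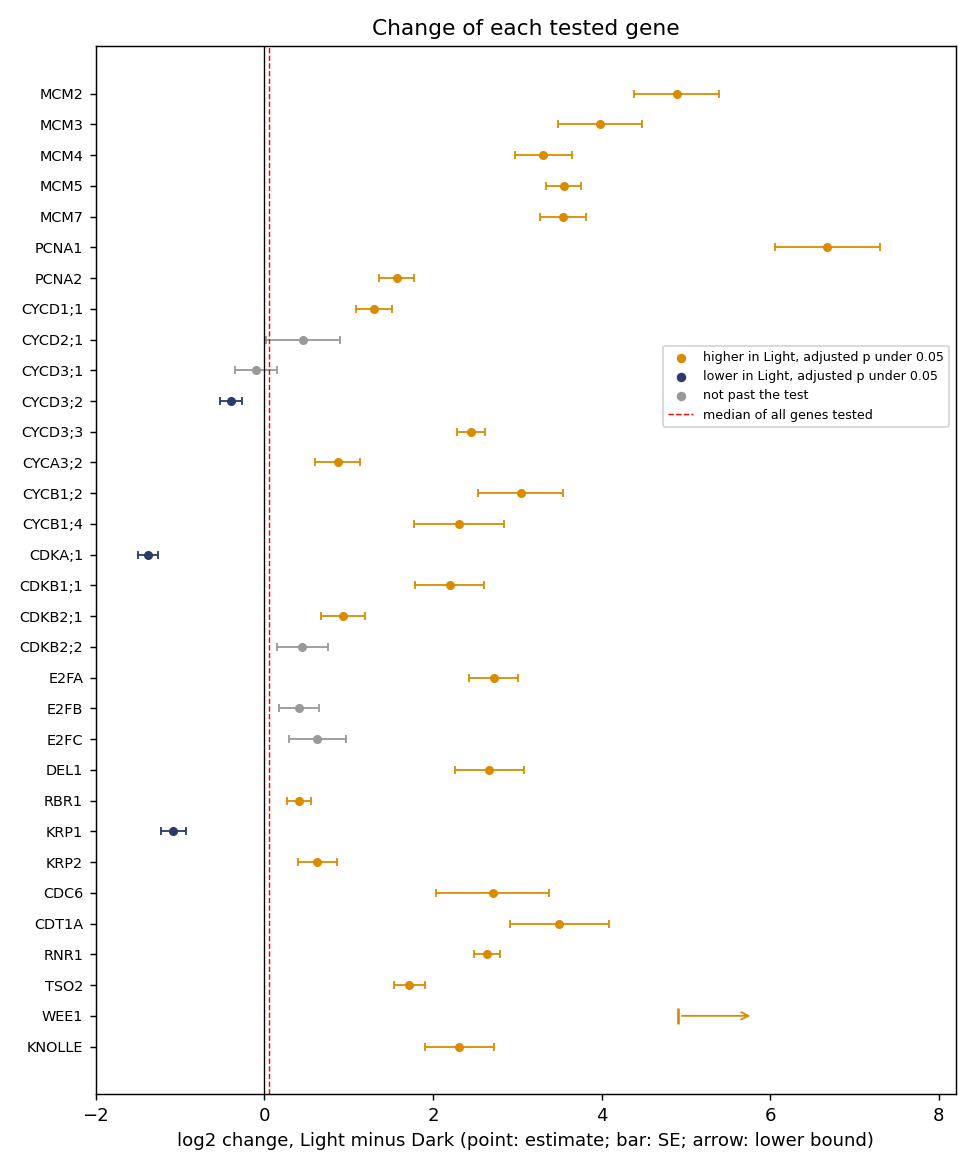
Log2 change, Light minus Dark, of the 32 tested genes, with bars for the SE; orange points were higher and blue points lower in Light at an adjusted p under 0.05, grey points did not pass, and the dashed line is the median of all genes tested (0.05). WEE1, with no Dark reads, is drawn as an arrow from its lower bound (4.91), and CDKA;1, KRP1 and CYCD3;2 are the only blue points.

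Poly(A) sites were then compared as the share of a gene's reads at each site, for sites with at least 5% of them, with edgeR's test of differential usage combined per gene by Simes' method. Site usage changed in PCNA2, CYCD3;1 and CYCD3;2, 3 of the 14 members tested (21.4%), beside 25.5% of the 11200 genes tested. The members' share lies near the background. The most used site lay within 100 nt of the annotated gene end in 21 of the 32 tested members (65.6%) and in 54.3% of all genes tested.

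CYCD3;1, whose total did not pass the test, changed in the site it used (edgeR adjusted p = 0.000815 for the gene). The site 141 nt before the annotated end (chromosome 4, position 16359424, plus strand) held 5.31, 2.08 and 6.10% of its reads in Light and 24.0, 37.5 and 31.2% in Dark libraries. Its use relative to the gene's other sites fell by 1.93 on the log2 scale (edgeR adjusted p = 0.000605). The last site, 10 nt before the end (position 16359555), held 17.5 ± 6.49% in Light and 3.82 ± 3.35% in Dark seedlings (SD, n = 3 each), a relative log2 change of 1.52 (edgeR adjusted p = 0.0218). That call was lost without Light replicate 2, Light replicate 3 or Dark replicate 3 (adjusted p = 0.0794, 0.129 and 0.221). The main site, at position 16359523, held 73.6 ± 6.30% in Light and 53.5 ± 14.0% in Dark seedlings and did not pass (edgeR adjusted p = 0.655).

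CYCD3;2 used the first of its sites less and the last more in Light (edgeR adjusted p = 0.00145 for the gene). Its 3 sites spanned 93 nt on chromosome 5, plus strand, well inside the long RefSeq gene model, 1786 to 1879 nt before its end. The first (position 26837718) held 13.4, 15.2 and 13.3% in Light and 28.9, 22.7 and 23.3% in Dark libraries, a relative log2 change of -0.57 (edgeR adjusted p = 0.00107). The last (position 26837811) held 45.8, 45.1 and 47.9% in Light and 28.2, 33.5 and 31.8% in Dark libraries, a relative log2 change of 0.40 (edgeR adjusted p = 0.0129). The middle site (position 26837766) held 38.4 ± 0.886% in Light and 43.1 ± 1.22% in Dark seedlings (SD, n = 3 each) and did not pass (edgeR adjusted p = 0.668). The groups did not overlap at the first or the last site. The call of the last site was lost without Dark replicate 1 or Dark replicate 3 (adjusted p = 0.0539 and 0.0618).

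In PCNA2 the site 33 nt past the annotated end (chromosome 2, position 12649873, minus strand) held 24.7, 18.6 and 21.2% in Light and 0.0, 8.82 and 3.45% in Dark libraries. Its relative log2 change was 1.57 (edgeR adjusted p = 0.00977, and 0.0139 for the gene). Only 4 of its 86 reads came from the Dark libraries. The relative change was 2.39 without Dark replicate 2 and 1.19 without Dark replicate 1. The gene's call was lost without Light replicate 1, Dark replicate 1 or Dark replicate 3 (adjusted p = 0.061, 0.142 and 0.0794). In RBR1 the site 112 nt before the end held 26.8 ± 3.26% in Light and 39.9 ± 0.523% in Dark seedlings (SD, n = 3 each), and the gene did not pass (edgeR adjusted p = 0.0821).

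E2FA carried reads far inside the gene. The site 2771 nt before the annotated end held 20.9 ± 6.72% of its reads in Light and 7.10 ± 6.25% in Dark seedlings (SD, n = 3 each), which did not pass (edgeR adjusted p = 0.465 for the gene). An annotated neighbour of unresolved strand overlaps the 3′ end of E2FA, so reads there cannot be told apart if both lie on the same strand.

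**Figure D4:**
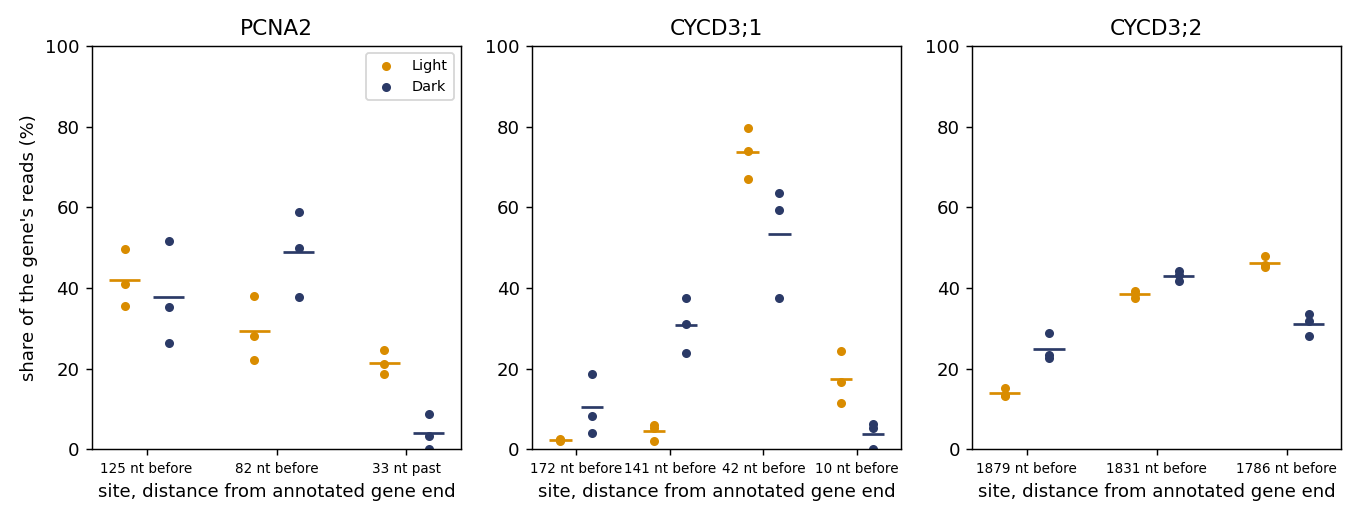
Share of a gene's reads at each poly(A) site, by distance from the annotated gene end, for PCNA2, CYCD3;1 and CYCD3;2; points are libraries, Light (orange) left of Dark (blue) at each site, and short lines are means (n = 3 each). At the CYCD3;1 site 141 nt before the end the means are 4.50% in Light and 30.9% in Dark, and at the last CYCD3;2 site they are 46.3% in Light and 31.2% in Dark.

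Reads on the opposite strand were kept apart. They were present within 17 members, and 4 of the 7 that could be tested were called, beside 71.3% of the 2964 genes tested on that strand. MCM3 and CYCB1;1 had fewer such reads in Light seedlings, and PCNA2 and KNOLLE had more (2 of 7 higher in Light, beside 36.6% of those genes). For PCNA2 and KNOLLE all of them lay in an annotated neighbour on that strand, and for KNOLLE the call was lost without Light replicate 1, Light replicate 2, Dark replicate 2 or Dark replicate 3 (adjusted p = 0.195, 0.0889, 0.163 and 0.0984).

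Within MCM3 the opposite strand carried 18, 22 and 29 reads in Light and 55, 92 and 93 reads in Dark libraries, a log2 change of -2.16 ± 0.27 (SE, edgeR adjusted p = 2.74e-07). The gene's own strand ran the other way, with 63, 56 and 52 reads in Light and 0, 6 and 2 in Dark libraries. Reads of the opposite strand were thus 28.8% of those on both strands in Light and 96.8% in Dark seedlings. Most of them, 212 of 309, ended in the middle of the gene at position 18771054 of chromosome 5, plus strand, where the table lists no other gene.

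CYCB1;1 lay under a larger excess of opposite-strand reads. These numbered 191, 210 and 238 in Light and 548, 447 and 628 in Dark libraries, a log2 change of -1.71 ± 0.14 (SE, edgeR adjusted p = 2.66e-10). Of the 2262 reads, 2109 ended at position 17621940 of chromosome 4, plus strand, 54 nt inside the lower end of the CYCB1;1 span and 120 nt past the neighbouring gene AT4G37483. The strand of that neighbour was not resolved, so its transcripts and antisense transcripts of CYCB1;1 cannot be told apart. A count without strand would have given CYCB1;1 almost wholly the reads of the other strand, 96.5% in Light and 99.8% in Dark seedlings.

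**Figure D5:**
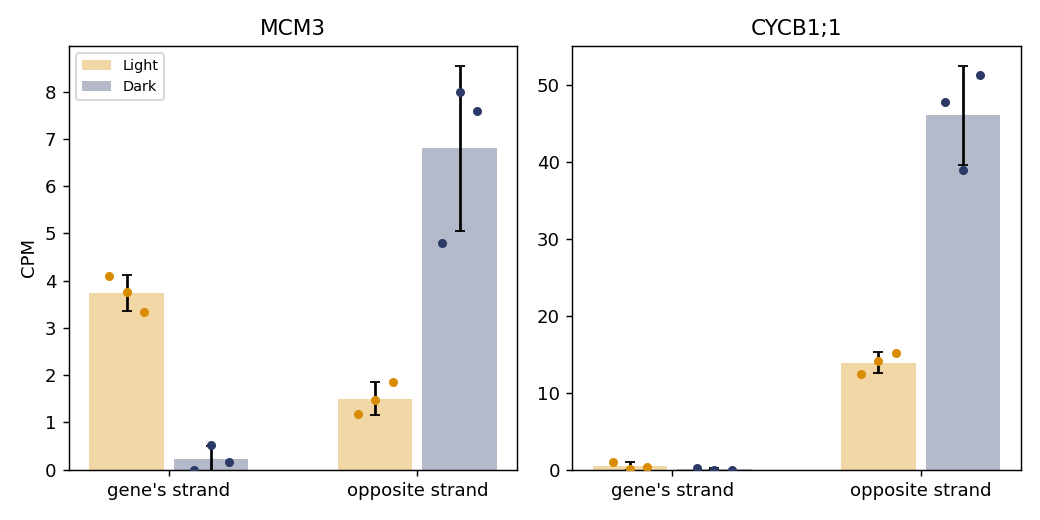
CPM of reads on the gene's own strand and on the opposite strand for MCM3 and CYCB1;1; points are libraries, bars means and error bars SD (n = 3 each), Light (orange) left of Dark (blue). For MCM3 the own strand averages 3.73 CPM in Light and 0.228 CPM in Dark, and the opposite strand 1.50 CPM in Light and 6.80 CPM in Dark; for CYCB1;1 the opposite strand averages 13.9 CPM in Light and 46.0 CPM in Dark.

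Other genes of the same processes were counted from lists. Each count stands beside the values for all genes tested: 37.3% higher in Light, 35.4% lower and a median of 0.05. As among the members, some listed genes came into the test through their level in Light alone. MYB3R-4, for instance, had 107 reads in Light and 3 in Dark libraries. Such genes were not counted apart, so the filter's part in the list counts was not tested. Among genes of origins, replisome and nucleotide synthesis, 13 of 21 tested rose in Light seedlings, 2 fell and 6 did not pass, with a median log2 change of 1.00. RPA70B, a subunit of the single-strand binding protein RPA, averaged 16.1 ± 2.92 CPM in Light and 0.615 ± 0.389 CPM in Dark seedlings (SD, n = 3 each), a log2 change of 4.67. POLA2, of the polymerase alpha complex, changed by 3.02. Of the 4 subunits of GINS, which works with the MCM ring, PSF1 and PSF2 were lower in Light, and SLD5 and PSF3 (TTN10 in RefSeq) did not pass, at 0.65 and 0.53 (edgeR adjusted p = 0.118 and 0.0676). PSF1 averaged 4.80 ± 0.803 CPM in Light and 48.8 ± 4.82 CPM in Dark seedlings (SD, n = 3 each), a log2 change of -3.34, and PSF2 changed by -0.90.

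Histone H4 and H3.1 genes, which package new DNA, were higher in 8 of 13 cases and lower in 4, with a median of 0.74. The H3.1 genes AT5G10390 and AT1G09200 rose by 3.48 and 2.22. The H4 genes went both ways. Of these, AT5G59690, AT3G53730, AT1G07820 and AT1G07660 changed by -0.99, -0.84, -0.68 and -0.5. HIS4, AT3G45930, AT5G59970 and AT3G46320, also H4 genes, rose by 0.46, 0.74, 0.83 and 1.06. Whether reads were shared between copies of these histone genes was not tested.

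Of other cyclins, CDKs and their partners, 12 of 15 rose and 3 fell, with a median of 1.56. CYCA3;1 and CYCA2;3 rose by 2.82 and 2.44, and the CDK subunit CKS1 and the CDK-activating kinase CAK1AT changed by -0.83 and -0.80. Of inhibitors and E2F partners, 8 of 15 rose, 3 fell and 4 did not pass, with a median of 0.95. The inhibitor LGO averaged 129 ± 3.37 CPM in Light and 23.3 ± 5.87 CPM in Dark seedlings (SD, n = 3 each), a log2 change of 2.47, and the KRP family gene ICK3 rose by 1.16. ICK6, KRP6 and ICK5, of the same family, also rose, by 2.21, 0.95 and 2.15. The KRP family gene AT2G32710 and the inhibitor SIM changed by -1.39 and -1.20.

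Of mitosis and cytokinesis genes, 12 of 15 rose, 2 fell and 1 did not pass, with a median of 1.57. The Aurora kinases AUR1 and AUR3 rose by 2.00 and 1.39. SNAP33 and KEU, which act with KNOLLE at the cell plate but are used more widely in membrane fusion, changed by -1.80 and -1.52, opposite to KNOLLE.

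Of 12 meristem markers 8 were tested, and 4 of these did not pass. The 2 that were higher were ANT (1.71) and SHR (0.78), and the 2 that were lower were CLV1 (-2.43) and STM (-0.94). The share in each direction lay below that of all genes. The markers summed to 103 to 109 CPM in Light and 200 to 204 CPM in Dark libraries. The direction of that sum rested on CLV1, which averaged 25.7 CPM in Light and 139 CPM in Dark seedlings. ANT averaged 34.2 CPM in Light and 10.4 CPM in Dark seedlings. WUS had no reads, and CLV3 and PLT2 had under 10 reads over all 6 libraries. The 3 leaf markers summed to 8350 to 9900 CPM in Light and 2830 to 3760 CPM in Dark libraries, all higher in Light. Of 4 root markers, PYK10 averaged 7140 CPM in Light and 1610 CPM in Dark seedlings, PIP1A was lower in Light, at 110 CPM in Light and 215 CPM in Dark seedlings, and SHV2 and RHD6 had 1 and 15 reads in all, too few to be tested. The part of cell composition in the results was not tested.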

How the data were processed

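The authors deposited a table of raw read counts per poly(A) site cluster in 6 libraries of 3′READS+, with chromosome, strand and position. Bowtie2 and TAIR10 are named in the submitters' processing notes, without settings for clustering. Gene spans came from RefSeq, whose table holds no strand. A gene's strand was taken as the strand with at least 90% of 20 or more reads near the gene's possible 3′ ends, and otherwise, by a rule added after the data were seen, as that with at least 80% of the reads in its span (CYCD3;1 and CYCD3;2). On genes resolved at their ends the added rule gave the same strand in 99.64%. Clusters in several genes were left out. Counts were fitted with edgeR 4.0.16 (R 4.3.3): TMM, filterByExpr with a minimum count of 10 and total of 15, quasi-likelihood F-tests, diffSpliceDGE for sites, and Benjamini-Hochberg at 0.05. The standard error is the log2 change divided by the root of F.

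On simulated data the gene-level fit recovered 95 of 100 genes changed 2-fold and 100 of 100 changed 4-fold among 16848 genes, with 11 false calls, and the site test 189 of 200 genes changed 4-fold among 11064, with 6 false calls. The gene-level simulation left out genes with few reads, and every gene and site was given the same spread between replicates. These rates thus do not cover the members with the fewest reads. DESeq2 1.42.0, library totals, no filter, other reaches, a replicate block and leaving out each library were alternatives. Same-numbered libraries did not deviate together (correlations of 0.058, 0.001 and 0.073), so the numbers were not treated as pairs. The members and lists were chosen with earlier results of these data known. By the naming rule, values in every library are given for the members with the largest and the smallest change of each role group, for each that fell and for each with changed site usage, and from each list the 2 genes with the largest rise and the 2 with the largest fall among those with at least 5 CPM in the higher group and no overlap. Some members and listed genes are described beyond this rule and were chosen after their values were seen. Intervals and floors cover counting error only, since reads are not independent molecules. Sequences and promoter motifs were not analysed here.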

Additional observations from a re-analysis of the deposited data

How the results depend on the processing

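Over the alternatives tried, 22 to 27 members were higher in Light and 2 or 3 lower, and 23 of the 27 called members were called the same way in every alternative that tested them; the exceptions were CYCD3;2, CYCA3;2, RBR1 and KRP2, whose values are given with the results. Of the called members only CYCD3;2 turned direction, to 0.04 with library totals; CYCD3;1, which was not called, had 0.34 there. Library totals raised the count of members to 27, and 68.0% of all calls were then higher in Light, against 51.3% with TMM factors. DESeq2 and no filter gave 26 members higher, with MCM6 and CYCA1;1 added. Leaving out 1 library at a time gave 22 to 25 members higher and 2 to 3 lower, 5997 to 6434 of all genes higher and 5728 to 6147 lower, 2 to 3 members with changed site usage (2036 to 2919 of all genes), and 3 to 4 members called on the opposite strand (2022 to 2137 of all genes). With strand resolved at gene ends only, an alternative added after seeing the data, 1 member had changed site usage, since CYCD3;1 and CYCD3;2 were then not tested. With the replicate number as a block, 24 members were higher and 3 lower, 3 had changed site usage and 4 were called on the opposite strand; over all genes, 6317 were higher, 5975 lower, 2725 changed in site usage and 2096 on the opposite strand. Depth limits the low genes: in Dark libraries 8 members had a library without reads, and their ratios rest on few reads.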
